A study of Homo sapiens with 12 samples.

Results

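Transcripts of 10 inflammatory cytokines and chemokines were followed in HK-2 cells, a line of human proximal tubule epithelium immortalized with papillomavirus genes. The members were IL6, CXCL8, CXCL1, CXCL2, CXCL3, CCL2, CCL20, IL1A, IL1B and LIF. They were chosen by gene name, and every probe set annotated to exactly 1 of them was taken. This gave 15 of the 54675 probe sets on the array. All 10 genes were represented, of 19775 genes that have a probe set of their own. The study asked which transcripts change when these cells meet CsA (read here as cyclosporin A, the calcineurin inhibitor), a nephrotoxic compound. The 4 groups of 3 arrays were CsA for 12 h, its control at 12 h, CsA for 48 h and its control at 48 h. The control cells received the vehicle. Neither the dose nor the name of the vehicle is given in these sources. All groups were the same single line, treated near confluence in a defined medium with EGF, insulin, transferrin, selenium and hydrocortisone, a glucocorticoid. The replicates are labelled biological, but nothing says how their cultures were separated, so a p-value measures only the spread between these arrays.

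Chemokines are small secreted proteins that draw leukocytes toward a tissue. CXCL8, CXCL1, CXCL2 and CXCL3 attract neutrophils, CCL2 attracts monocytes and CCL20 attracts cells carrying the receptor CCR6. IL1A and IL1B are interleukin-1 alarm cytokines that switch on chemokine genes in neighbouring cells. IL6 and LIF belong to the family of cytokines that signal through the shared receptor subunit gp130 to STAT3. In injured kidney tubules several of these genes are induced through the transcription factors NF-kB and AP-1, and the mRNAs of many of them decay quickly.

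Array quality and cell identity bear on how firmly the values can be read. The share of all probe sets above a log2 value of 4 lay between 42.2% and 42.8% over the 12 arrays. Probe sets varied within a group with a median SD of 0.12 in both 12 h groups, 0.17 in the 48 h controls and 0.22 in CsA at 48 h. The median signal of 18 hybridization control probe sets was 7.38 on replicate 3 of CsA at 48 h and 9.89 to 11.42 on the other arrays. The median of 24 poly-A control probe sets was 5.04 and 4.32 on replicate 1 of CsA and control at 48 h, and 8.38 to 10.18 elsewhere. Epithelial markers were present, with EPCAM, KRT8, KRT18 and KRT19 above a log2 value of 4 and CDH1 below it. Of 13 proximal tubule markers with a probe set, CDH6, CDH16 and PAX8 passed, while CUBN, LRP2, ANPEP, AQP1 and the rest lay under a log2 value of 4 on all 12 arrays. None of 12 leukocyte markers and none of 5 endothelial markers exceeded a log2 value of 4 on 3 arrays, PTPRC, CD14 and PECAM1 among them. Leukocyte signal therefore stayed near the array floor in every group, with a log2 of the summed signal from 5.99 to 6.10 over all arrays. Of 7 fibroblast and mesangial markers, 4 were measured (COL1A1, LUM, DCN and PDGFRB), while COL1A2, COL3A1 and PDGFRA lay under 4. This list's log2 summed signal was 9.29 to 10.03 in CsA at 48 h, 10.44 to 10.81 in the 48 h controls, and 10.23 to 10.80 over the 12 h groups. The proximal tubule list lay at 12.85 to 13.01 in CsA at 48 h, against 13.22 to 13.47 in its controls. All cultures were of this single line, so the lists give levels of marker transcripts in HK-2 cultures and not shares of other cell types. In such bulk RNA, fewer cells with a transcript and less of it per cell cannot be told apart.

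Of the 10 genes, 5 were measured above background: CXCL8, CXCL2, CXCL3, IL6 and LIF. The other 5, CXCL1, CCL2, CCL20, IL1A and IL1B, lay under a log2 value of 4 in every probe set on every array, and are called near background here. Together with the remaining CXCL2 probe set, 230101_at, they made up 8 probe sets with values between 2.16 and 2.64 on all 12 arrays. Among the 41091 probe sets with 1 gene symbol, 47.9% were likewise under 4 on all arrays, and the median value of these was 2.34. CXCL1, in its only probe set, had means of 2.44 in both 12 h groups and 2.46 in both 48 h groups. CCL2, a monocyte attractant, had group means of 2.46, 2.47, 2.48 and 2.48 in control and CsA at 12 h and control and CsA at 48 h. CCL20 ranged from 2.16 to 2.21 over the arrays. IL1A ranged from 2.55 to 2.64 in 1 probe set and from 2.26 to 2.29 in the other. IL1B lay between 2.18 and 2.28 in 1 probe set, and in the other between 2.23 and 2.27 on 11 arrays and at 2.50 on replicate 2 of CsA at 48 h. CsA and control means of these 8 probe sets differed by at most 0.09, and values in this range do not order the groups, because GCRMA, the authors' method per the submitters' processing notes, sets dim probe sets close to a floor. No fold change is given for them.

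**Figure D1:**
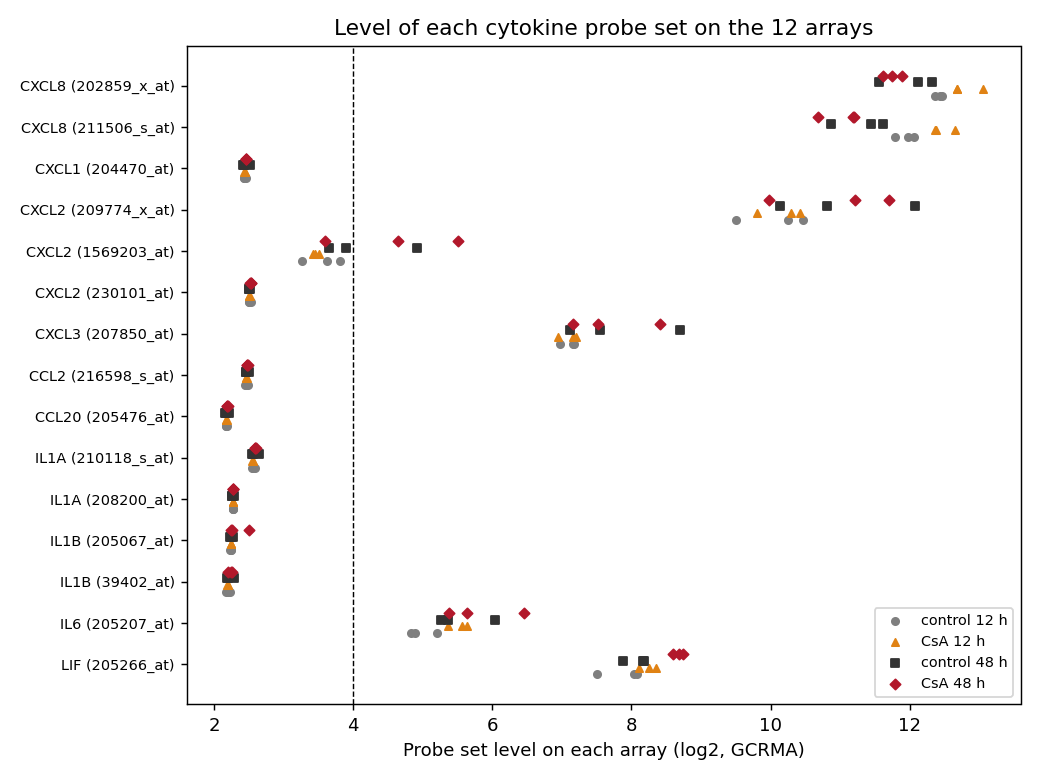
Log2 level (horizontal axis) of each of the 15 cytokine probe sets (rows, by gene) on the 12 arrays, with 1 symbol per array and group; the dashed line marks a log2 value of 4. The 8 probe sets of CXCL1, CCL2, CCL20, IL1A, IL1B and 1 of CXCL2 lie between 2.16 and 2.64 on every array, and levels of different probe sets are not comparable with each other.

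CXCL1, CXCL2 and CXCL3 are close paralogs that lie together with CXCL8 on chromosome 4, and their promoters are shown because the genes gave such different readings: CXCL1 was near background, while CXCL2 and CXCL3 were measured and varied together. CXCL2 was bright only in 209774_x_at (mean log2 10.55), whose suffix marks probes that can match related sequences. The other CXCL2 probe sets had means of 3.94 and 2.51. CXCL1 was read by a single probe set, and whether that set can detect the gene was not tested. Each line is the 140 bases just before the annotated start of the gene, 5′ to 3′ on the gene's strand, from RefSeq on GRCh38.p14. Capitals mark matches to the letters GGANTTTCC, a core of known NF-kB sites, or TGANTCA, the AP-1 core, searched on both strands. The letters were chosen with known sites of these promoters in mind.
CXCL8: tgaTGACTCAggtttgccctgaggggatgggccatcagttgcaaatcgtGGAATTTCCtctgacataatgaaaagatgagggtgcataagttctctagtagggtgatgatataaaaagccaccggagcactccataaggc
CXCL1: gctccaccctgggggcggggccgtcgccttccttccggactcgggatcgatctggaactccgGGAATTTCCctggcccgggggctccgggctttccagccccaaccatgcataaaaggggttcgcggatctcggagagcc
CXCL2: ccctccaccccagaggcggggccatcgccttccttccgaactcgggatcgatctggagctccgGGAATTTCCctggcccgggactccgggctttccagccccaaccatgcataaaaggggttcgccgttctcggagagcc
CXCL3: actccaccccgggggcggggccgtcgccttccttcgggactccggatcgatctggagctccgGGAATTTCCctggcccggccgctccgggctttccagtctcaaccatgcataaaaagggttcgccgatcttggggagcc
IL6: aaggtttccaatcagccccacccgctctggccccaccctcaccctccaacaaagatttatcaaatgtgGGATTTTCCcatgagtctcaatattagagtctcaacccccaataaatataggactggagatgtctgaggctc
The windows are chr4:73740429-73740568 (+) for CXCL8, chr4:73869253-73869392 (+) for CXCL1, chr4:74099196-74099335 (-) for CXCL2, chr4:74038690-74038829 (-) for CXCL3 and chr7:22727060-22727199 (+) for IL6. In a global alignment, 129 of 140 bases (92.1%) were the same in CXCL1 and CXCL2, 127 (90.7%) in CXCL1 and CXCL3 and 124 (88.6%) in CXCL2 and CXCL3. Between any of these and CXCL8 or IL6 it was 69 to 73 bases, and 71 between CXCL8 and IL6. All 5 windows held the GGANTTTCC letters, beginning 72 bases upstream of the start in IL6, 77 in CXCL2, 78 in CXCL1 and CXCL3 and 91 in CXCL8. They were found in 5 of the 8 members with a promoter entry and in 0.891% of 35116 promoter windows of this length. The AP-1 letters stood at 137 bases upstream in CXCL8. They were also found in IL1A, at other distances, and in 3.92% of all windows. The near-background CXCL1 thus carried the same matched letters at the same distance as the measured CXCL3.

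CXCL8, IL6 and LIF were the members with higher values in CsA at 12 h. In 4 of the 7 tested probe sets, all 3 CsA arrays lay above all 3 controls: both of CXCL8 and those of IL6 and LIF. Over all 20625 probe sets tested, 6.2% were separated in this direction. None of the 7 passed the test (limma, adjusted over all probe sets by Benjamini-Hochberg, threshold 0.05). Over all probe sets 0 passed as well, and percent called was 0. At an unadjusted p under 0.05 there were 3 of the 7, all higher: both probe sets of CXCL8 and that of IL6. This stands against 3.68% of all probe sets higher and 6.5% in either direction. The SEs and intervals given below for 12 h ignore the replicate number, though arrays of the same number deviated together over all probe sets at this time. Fitting the replicate number as a block changed no member's call. With the block the SE was 0.07 for IL6 and for CXCL8 in 211506_s_at (limma adjusted p = 0.258 for each). It was 0.12 for CXCL8 in 202859_x_at, 0.10 for LIF, 0.05 for CXCL3 and 0.11 for CXCL2 in 209774_x_at. The median log2 change of the 7 was 0.37, against -0.003 over all probe sets tested. The 7 include CXCL2 probe set 1569203_at, which was near background in both groups at 12 h, and both probe sets of CXCL8. The median and the counts out of 7 thus hold a value that cannot be read and a repeated gene.

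CXCL8, which encodes interleukin-8, was followed by 2 probe sets. In probe set 211506_s_at the controls at 12 h had log2 values of 12.07, 11.79 and 11.98 and the CsA arrays 12.64, 12.38 and 12.37. Its log2 change was 0.52 (SE 0.11, 95% confidence interval 0.25 to 0.79, limma adjusted p = 0.590), a 1.44-fold higher level. Probe set 202859_x_at, whose suffix marks probes that can match related sequences, gave control values of 12.36, 12.46 and 12.44 and CsA values of 13.05, 12.68 and 12.68. Its log2 change was 0.38 (SE 0.12, interval 0.10 to 0.66, limma adjusted p = 0.642). Both probe sets thus separated the groups in the same direction, and replicate 1 with CsA was the highest array in each. Without that array the log2 changes were 0.43 and 0.26.

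IL6, the acute-phase cytokine, was dim: its 12 arrays spanned log2 values of 4.83 to 6.45, so the size of a change is uncertain. The 12 h controls had 5.21, 4.83 and 4.89, and the CsA arrays 5.63, 5.36 and 5.57. The log2 change was 0.55 (SE 0.13, interval 0.24 to 0.86, limma adjusted p = 0.595). Arrays with the same replicate number differed by 0.42, 0.54 and 0.68, all toward higher values with CsA.

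LIF, a gp130 cytokine made by injured epithelium, had 12 h control values of 8.08, 8.03 and 7.51 and CsA values of 8.36, 8.25 and 8.11. The CsA arrays lay just above the controls, with a log2 change of 0.37 (SE 0.17, interval -0.04 to 0.77, limma adjusted p = 0.786). Replicate 3 of the controls was the low array, and without it the change was 0.18.

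The neutrophil attractants CXCL2 and CXCL3 overlapped between the groups at 12 h. CXCL3 read 6.97, 7.16 and 7.18 in the controls and 6.94, 7.16 and 7.20 with CsA. The log2 change was -0.004 (SE 0.10, interval -0.25 to 0.24, limma adjusted p = 0.999), so the interval holds changes of up to about 0.25 in either direction. In CXCL2 probe set 209774_x_at the controls had 9.50, 10.24 and 10.47 and the CsA arrays 9.80, 10.43 and 10.29, and the change was 0.10 (SE 0.29, interval -0.60 to 0.80, limma adjusted p = 0.984). Replicate 1 was the low array of both CXCL2 groups. The second CXCL2 probe set, 1569203_at, was near background in both groups at 12 h, with values of 3.27 to 3.82, and no change is given for it.

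**Figure D2:**
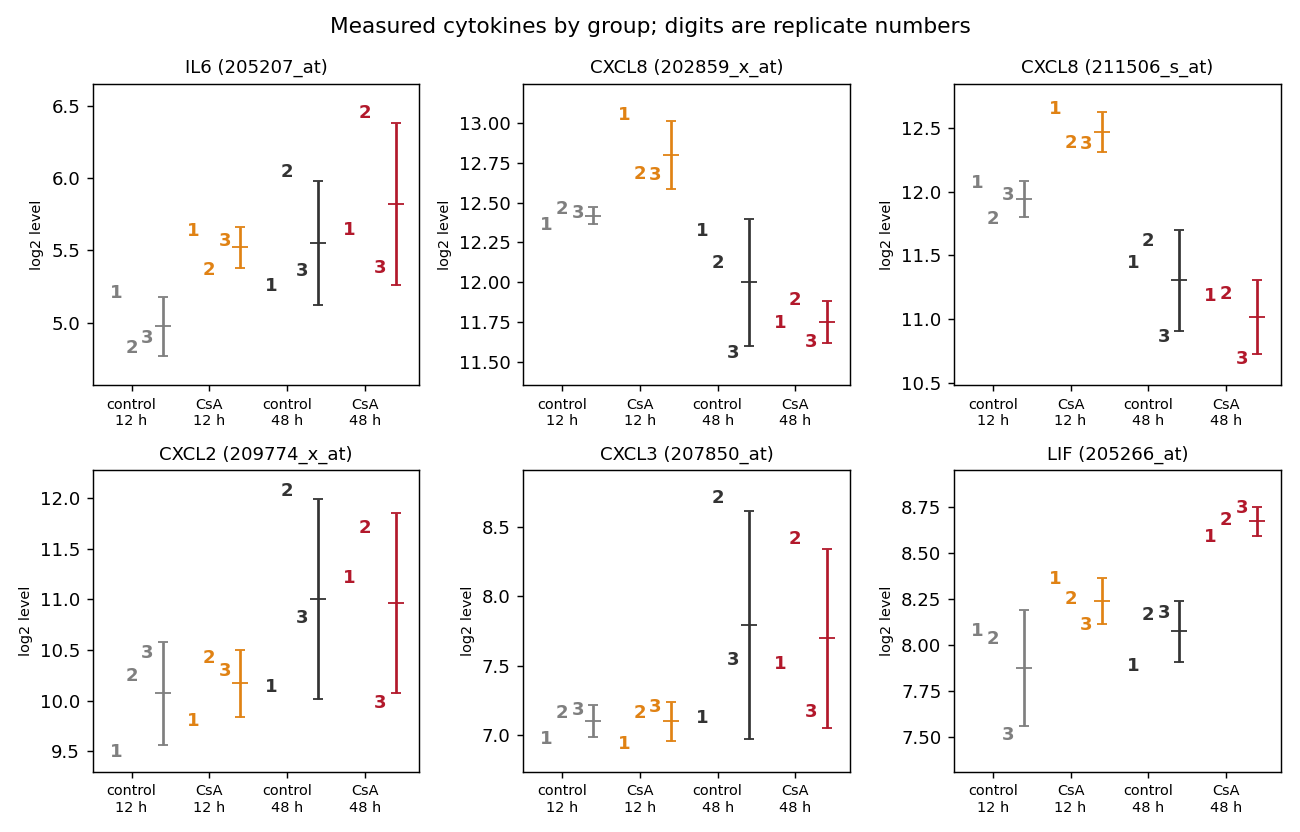
Log2 level (vertical axis, a separate scale per panel) of 6 probe sets of CXCL8, CXCL2, CXCL3, IL6 and LIF in the 4 groups (horizontal axis); each digit is an array, printed as its replicate number, with the group mean and SD (n = 3) beside it. CsA arrays lie above the controls for both CXCL8 probe sets, IL6 and LIF at 12 h and for LIF alone at 48 h.

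At 48 h LIF was the member that separated the groups. Its controls had log2 values of 7.88, 8.16 and 8.18 and the CsA arrays 8.59, 8.68 and 8.75. The log2 change was 0.60 (SE 0.13, interval 0.29 to 0.91), a 1.51-fold higher level, and it did not pass in the fit of the 48 h arrays (limma adjusted p = 0.10). Of all probe sets, 12.5% were separated upward at 48 h, and 0.0388% passed in the test, all 8 of them lower with CsA. At an unadjusted p under 0.05, LIF was the only 1 of the 7 member probe sets, against 7.63% of all probe sets higher and 19.5% in either direction. LIF did pass where the spread was shared over all 12 arrays (limma adjusted p = 0.0306, with 4.52% of all probe sets called higher) and with array weights (log2 change 0.52, limma adjusted p = 0.0362, with 2.6% called higher). The SE of LIF was 0.15 with the shared spread, against 0.13 in the fit of the 48 h arrays. When each array in turn was left out of the fit with the shared spread, 7 of 12 fits kept LIF past the threshold. It was lost without CsA 48 h replicate 1, 2 or 3 (limma adjusted p = 0.0621, 0.0517 and 0.0577) or control 48 h replicate 1 or 2 (0.0923 and 0.0714). In those 12 fits the log2 change lay between 0.50 and 0.65. The summed signal of the fibroblast and mesangial list was lower on the same CsA arrays, as given above, and any relation to LIF was not tested.

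CXCL8 had lower means with CsA at 48 h, with overlapping groups. In probe set 211506_s_at the controls had 11.44, 11.62 and 10.86 and the CsA arrays 11.18, 11.20 and 10.69. The log2 change was -0.28 (SE 0.25, interval -0.88 to 0.31, limma adjusted p = 0.568). In 202859_x_at the controls had 12.32, 12.12 and 11.55 and the CsA arrays 11.74, 11.89 and 11.62, with a change of -0.25 (SE 0.22, interval -0.77 to 0.28, limma adjusted p = 0.572). Replicate 3 was the lowest array of its group in both probe sets and in both groups. The size of both changes rested on single arrays. In 211506_s_at it was -0.51 without control replicate 3, -0.13 without control replicate 2 and -0.12 without CsA replicate 3. In 202859_x_at it was -0.47 without control replicate 3 and -0.09 without control replicate 1.

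CXCL2, CXCL3 and IL6 varied more between the arrays of 1 group at 48 h than between CsA and control. CXCL3 had control values of 7.12, 8.70 and 7.54 and CsA values of 7.51, 8.41 and 7.16, with a log2 change of -0.09 (SE 0.49, interval -1.28 to 1.10, limma adjusted p = 0.940). CXCL2 in 209774_x_at had 10.13, 12.08 and 10.82 in the controls and 11.21, 11.71 and 9.97 with CsA, and its change was -0.04 (SE 0.62, interval -1.55 to 1.47, limma adjusted p = 0.981). Replicate 2 was the highest array of both groups for both genes. The dimmer CXCL2 probe set, 1569203_at, had 3.65, 4.92 and 3.89 in the controls and 4.64, 5.51 and 3.59 with CsA. Only 3 of the 12 arrays, all at 48 h, exceeded a log2 value of 4 in it, and it entered the test through them. Its change was 0.43 (SE 0.55, interval -0.91 to 1.77, limma adjusted p = 0.716). IL6 had 5.26, 6.04 and 5.36 in the controls and 5.64, 6.45 and 5.38 with CsA. Its change was 0.27 (SE 0.34, interval -0.55 to 1.09, limma adjusted p = 0.704), and -0.04 without CsA replicate 2, the highest array. For CXCL3, leaving out control replicate 2 gave 0.36 and leaving out CsA replicate 3, the array with the low hybridization signal, gave 0.17. For CXCL2 in 209774_x_at the same omissions gave 0.49 and 0.45. The intervals at 48 h are wide enough to hold a log2 change of 1 in either direction for CXCL2 in 209774_x_at and for CXCL3. These intervals ignore the replicate number. With it as a block the SE was 0.41 for CXCL2 in 209774_x_at, 0.20 for CXCL3 and 0.14 for IL6, and none of them passed.

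**Figure D3:**
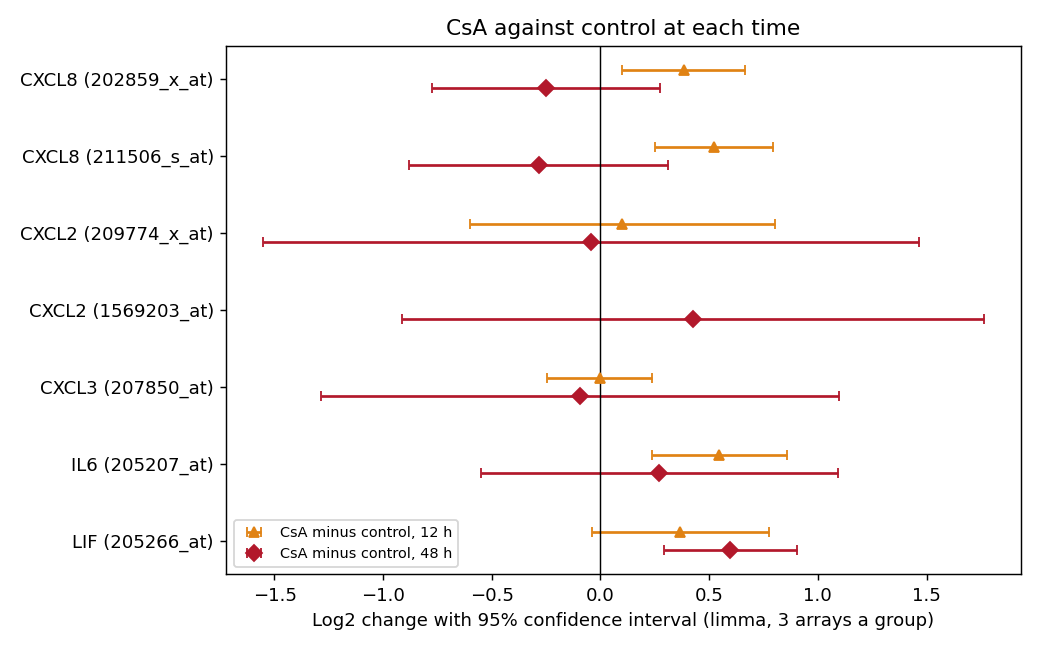
Log2 change, CsA minus control (horizontal axis), with its 95% confidence interval from limma (3 arrays a group), for the 7 tested probe sets (rows) at 12 h (triangles) and 48 h (diamonds); 1569203_at has no 12 h value because both groups were near background. CXCL8 lies at 0.38 and 0.52 at 12 h and at -0.25 and -0.28 at 48 h, LIF at 0.37 and 0.60, and the intervals of CXCL2 and CXCL3 are widest at 48 h.

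The sign of the CXCL8 change was positive at 12 h and negative at 48 h, and the difference between these effects was tested in all 12 arrays. For 211506_s_at the effect at 48 h minus that at 12 h was -0.81 (SE 0.28, interval -1.44 to -0.18, limma adjusted p = 0.217). For 202859_x_at it was -0.63 (SE 0.26, interval -1.20 to -0.06, limma adjusted p = 0.273). Neither passed, while 0.32% of all probe sets did. These 2 probe sets of the same gene were the only ones of the 7 with an unadjusted p under 0.05. Both were negative, against 9.55% of all probe sets negative and 15.5% in either direction. The difference was 0.23 (SE 0.22, limma adjusted p = 0.654) for LIF and -0.28 (SE 0.39, limma adjusted p = 0.781) for IL6. It was -0.09 (SE 0.54) for CXCL3 and -0.15 (SE 0.75) for CXCL2 in 209774_x_at, and is not given for 1569203_at, whose 12 h groups were near background.

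The control cells differed more widely between the times: 39.3% of all probe sets differed between 48 h and 12 h controls (limma adjusted p under 0.05). Time in culture and any difference in handling between the times cannot be told apart here. The comparisons of control times share the 12 h controls with the 12 h CsA contrast and the 48 h controls with the 48 h contrast. None of the 7 member probe sets passed, and 2 had an unadjusted p under 0.05 against 49.4% of all probe sets. The 7 include CXCL2 probe set 1569203_at, which was near background in the 12 h controls, so no change is given for it. Both CXCL8 probe sets were lower at 48 h with no overlap, as were 26.9% of all probe sets. The change was -0.64 (SE 0.21, limma adjusted p = 0.0516) in 211506_s_at and -0.42 (SE 0.20, limma adjusted p = 0.142) in 202859_x_at. The first passed with only probe sets above 6 tested (limma adjusted p = 0.0419, with 21.4% of probe sets called lower) and with centred arrays (0.0408, with 18.9%). It also passed with the spread shared over 12 arrays (0.0288, with 18%), with trended robust moderation (0.0367, with 19.6%) and with array weights (0.0322, with 19%). Without control 48 h replicate 2 the change was -0.79 (limma adjusted p = 0.0338, with 17.6% called lower). That was the only 1 of 6 omissions of an array in which it passed. Without control 48 h replicate 3 the change was -0.42 (limma adjusted p = 0.0538) in this probe set and -0.20 in 202859_x_at. IL6 was higher at 48 h with no overlap, as were 28.4% of all probe sets, and its change was 0.58 (SE 0.23, limma adjusted p = 0.0930). CXCL3 had 0.69 (SE 0.39), CXCL2 in 209774_x_at 0.94 (SE 0.52), and LIF 0.20 (SE 0.18), all with overlapping arrays. In the CsA groups, CXCL8 means were 12.47 ± 0.15 (SD, n = 3) at 12 h and 11.02 ± 0.29 at 48 h in 211506_s_at. In 202859_x_at they were 12.80 ± 0.21 and 11.75 ± 0.13, and these groups were not tested against each other.

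Across the arrays CXCL2 and CXCL3 moved together, whichever group an array belonged to. Over the 12 arrays Pearson's r was 0.94 between CXCL3 and CXCL2 in 209774_x_at, and 0.91 for deviations from the group means. The dimmer CXCL2 probe set is left out here, since it exceeded a log2 value of 4 on only 3 arrays. IL6 followed them less closely, with 0.77 with CXCL3 over the arrays and 0.85 for deviations. For CXCL8, r with CXCL3 was -0.37 over the arrays and 0.45 for deviations in 211506_s_at, and -0.44 and 0.12 in 202859_x_at. The arrays share 4 groups and their normalization, the CXCL2 probe set 209774_x_at can match related sequences, and these values describe 12 arrays only. Control 48 h replicate 2 and CsA 48 h replicate 2 were the 2 highest arrays for CXCL2, CXCL3 and IL6. On the control array the values were 12.08 for CXCL2, 8.70 for CXCL3 and 6.04 for IL6, and on the CsA array 11.71, 8.41 and 6.45.

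**Figure D4:**
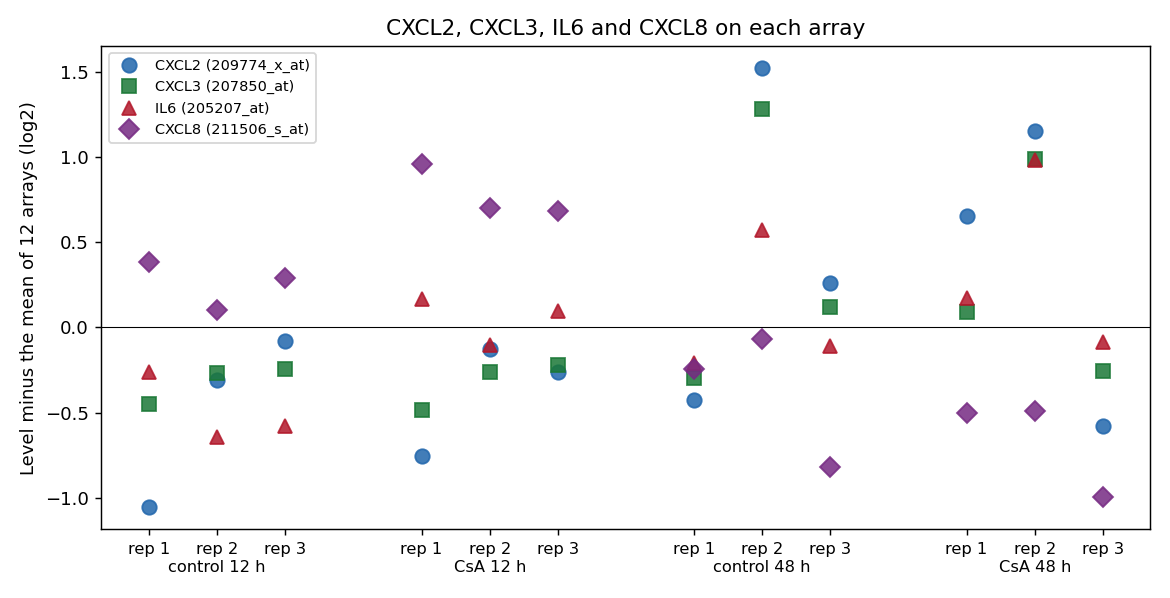
Level of CXCL2, CXCL3, IL6 and CXCL8 on each array minus that probe set's mean over the 12 arrays (vertical axis, log2), with arrays grouped by treatment and time (horizontal axis). Replicate 2 of both 48 h groups stands highest for CXCL2, CXCL3 and IL6, while CXCL8 in 211506_s_at is highest on the 3 CsA arrays at 12 h.

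The genes with the most similar pattern over the 12 arrays were looked up for each member with a mean log2 value of at least 6. For CXCL2 they were CXCL3 (r = 0.94) and ARHGAP12 (0.91). For CXCL3 they were KDM6B, a histone demethylase (0.95), and VHL, the substrate receptor of a ubiquitin ligase (0.94). For CXCL8 in 202859_x_at they were KMT2A, a histone methyltransferase (0.94), and LIPH, a phospholipase (0.93). For LIF they were GNA13, a G protein subunit, and TICAM1, a Toll-like receptor adaptor (0.92 and 0.91). These are the highest values among all genes tested and are given as a description only.

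Other genes of the pathway were counted from 5 lists, with 1 probe set for each gene. In none of the lists did a gene pass in a CsA contrast or in the difference of the effects (limma, adjusted over all probe sets). Few genes passed anywhere: of all 11154, 0 at 12 h, 2 at 48 h, and 3 higher and 41 lower in the difference. Of 36 other cytokines and chemokines, 34 had a probe set and 14 were bright enough to test. TNF, the classic NF-kB-inducing cytokine, and CXCL10, an interferon-induced chemokine, were near background in their brightest probe sets, with values of 1.79 to 1.80 and 1.99 to 2.02. The list's median log2 change was -0.01 at 12 h and 0.01 at 48 h. At an unadjusted p under 0.05, 0 were higher and 1 lower at 12 h, and 2 were higher and 3 lower at 48 h. Over all 11154 genes the shares were 3.79% and 3.05% at 12 h and 8.21% and 12.2% at 48 h. The genes named from this list were MIF, a macrophage-acting cytokine, with a change of -0.02 (SE 0.06) at 12 h and -0.01 (SE 0.10) at 48 h, and IL18, an interleukin-1 relative, with 0.01 (SE 0.09) and -0.44 (SE 0.16, limma adjusted p = 0.215). IL11, a gp130 cytokine like IL6 and LIF, was picked out after its values were seen. Its 48 h means were 7.88 in the controls and 8.65 with CsA, a change of 0.77 (SE 0.19, limma adjusted p = 0.119). The groups did not overlap, as for 12.5% of all probe sets in this direction. At 12 h IL11 had a change of -0.004, and the difference of the effects was 0.78 (SE 0.21, limma adjusted p = 0.122).

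The receptors that would hear these cytokines were only partly measured. Of 23 genes for receptors of the members and their signalling, 22 had a probe set and 15 were tested. CXCR1 and CXCR2, the receptors of CXCL8, and CCR2 and CCR6, those of CCL2 and CCL20, were near background on all arrays in their brightest probe sets, as were IL1R1 and the antagonist IL1RN. IL6ST, which encodes gp130, had a log2 change of 0.03 (SE 0.07) at 12 h and -0.27 (SE 0.19) at 48 h, and JAK1, a kinase bound to it, 0.02 (SE 0.06) and 0.48 (SE 0.19, limma adjusted p = 0.246). The list's median was 0.03 at 12 h and 0.15 at 48 h, with 0 genes at an unadjusted p under 0.05 at 12 h and 3 higher and 3 lower at 48 h. Among all genes, 3.79% were higher and 3.05% lower at 12 h, and 8.21% and 12.2% at 48 h. SOCS3, the feedback inhibitor of gp130 signalling, picked out after its values were seen, had 48 h means of 8.53 in the controls and 7.51 with CsA (log2 change -1.02, SE 0.37, limma adjusted p = 0.218). Its 48 h groups overlapped. From 12 h to 48 h in the controls SOCS3 changed by -0.78 (SE 0.29, limma adjusted p = 0.078).

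NF-kB genes gave medians of 0.07 at 12 h and -0.07 at 48 h over 21 tested of 26. At 12 h 15 of 21 had a positive change, against 47.1% of all genes, and 9 of 21 at 48 h, against 49.2%. At an unadjusted p under 0.05 there were 2 higher and 0 lower at 12 h and 1 higher and 4 lower at 48 h. The shares of all genes were 3.79% and 3.05% at 12 h and 8.21% and 12.2% at 48 h. NFKBIZ, an inducible cofactor of NF-kB, had a log2 change of 0.13 (SE 0.14) at 12 h and 0.44 (SE 0.28) at 48 h, and IER3, an early NF-kB target, 0.17 (SE 0.12) and 0.17 (SE 0.26). VCAM1 is a leukocyte adhesion molecule picked out after its values were seen. Its 48 h means were 7.68 and 5.15 in control and CsA, a change of -2.53 (SE 0.61, limma adjusted p = 0.119). From 12 h to 48 h in the controls VCAM1 changed by -1.31 (SE 0.63, limma adjusted p = 0.148). ICAM1, another leukocyte adhesion molecule of the list, had a change of 0.08 (SE 0.14) with CsA at 48 h.

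Of 16 C/EBP factors and genes for the decay of cytokine mRNAs 14 were tested, with medians of -0.04 and -0.02. At an unadjusted p under 0.05, 1 was higher and 0 lower at 12 h, and 1 higher and 1 lower at 48 h. Of all genes, 3.79% were higher and 3.05% lower at 12 h, and 8.21% and 12.2% at 48 h. HNRNPD, which binds AU-rich messages, had a log2 change of -0.03 (SE 0.06) at 12 h and -0.03 (SE 0.13) at 48 h, and ZFP36L1, a decay factor, 0.14 (SE 0.07) and -0.01 (SE 0.12). Of 13 inflammasome and interleukin-1 release genes 6 were tested, with medians of 0.03 and 0.06. CASP1, CASP4, NLRP3 and PYCARD, which build the machinery that matures IL1B, were near background like IL1B itself. In this list 1 gene was higher and 0 lower at an unadjusted p under 0.05 at each time, beside the same shares of all genes. ANXA2, a membrane-binding annexin, had 0.03 (SE 0.08) and 0.06 (SE 0.10), and the calpain CAPN2, a protease of the family that trims IL1A, 0.09 (SE 0.06) and 0.09 (SE 0.10).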

How the data were processed

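Total RNA of 12 HK-2 cultures was hybridized to Affymetrix arrays. The deposited values are log2 probe set levels that the authors made with GCRMA, per the submitters' processing notes; the sources used here give neither its version nor its settings. GCRMA corrects background by probe sequence and normalizes between arrays, so dim probe sets carry little order. Of 54675 probe sets, 41097 had 1 gene symbol in GEO's platform annotation, 1801 several and 11777 none, and 6 array controls with a symbol were left out. The 20625 probe sets (11154 genes) above a log2 value of 4 on at least 3 arrays were fitted with limma 3.58.1 in R 4.3.3 and adjusted by Benjamini-Hochberg, with a threshold of 0.05. CsA contrasts used the 6 arrays of their own time because the spread was wider at 48 h, the difference of the effects used all 12 arrays, and the time contrast used the 6 controls. No arrays were identical in their values. The fit was also run on simulated data, drawn without a shared replicate pattern and with larger changes than the estimates of the members. That run cannot say whether changes of the members' size would be found, and no result here rests on it. For each gene of a list the probe set with the highest mean stands for the gene, and the 2 genes with the highest means were named where none passed. The members, lists and comparisons were chosen with earlier results of these data known. Over all probe sets tested, arrays with the same replicate number deviated together at 12 h (r = 0.46, 0.55 and 0.39) and among the controls (0.12, 0.13 and 0.30). At 48 h they did not do so throughout (-0.11, 0.31 and -0.15), and the number is taken there as a name only. Some members did share a replicate pattern at 48 h, as given above. The alternatives were other filters, array centring, a shared spread, the replicate block, 1 or the mean of the probe sets of a gene, other moderation, array weights and the omission of arrays. The number of arrays limits the precision.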

Additional observations from a re-analysis of the deposited data

How the results depend on the processing

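Of 464 alternative log2 changes of member probe sets, 426 kept their direction and side of the threshold, 23 turned and 15 gained a call. The number of all probe sets called at 12 h was 0, and 1 with the spread shared over 12 arrays. At 48 h it was 8, and 1 without a filter, 82 with a filter at 6, 3 with centred arrays, 2620 with the shared spread, 123 with 1 probe set per gene, 88 with their mean, 133 with trended robust moderation, 1998 with array weights, 0 with the replicate block and 0 without both replicate 1 arrays; leaving out 1 array gave 0 to 23. For the difference of the effects it was 66, and in the same order 35, 124, 24, 125 (1 probe set per gene), 102 (mean), 154 (moderation), 1253 (weights), 243 with the replicate block within each time and 4 without both replicate 1 arrays; 1 array less gave 0 to 482. Between control times it was 8101, and 5295 with 1 probe set per gene, 5114 with their mean, 8163 with the replicate block and 5764 to 7922 with 1 array less. Member calls were 1 at 48 h with the shared spread or array weights (LIF). Between control times they were 1 (CXCL8, 211506_s_at) with the filter at 6, centring, shared spread, trended moderation or weights, and 0 to 1 with 1 array less. The replicate block changed no member's call. With it LIF at 48 h had an adjusted p of 0.15 (limma), and the CXCL8 difference in 211506_s_at one of 0.0526. At 48 h the block took the SE of CXCL8 in 211506_s_at from 0.25 to 0.13, and that of LIF from 0.13 to 0.12. For CXCL2 209774_x_at the mean of probe sets turned the change to -0.0022 at 12 h, 0.19 at 48 h and 0.19 in the difference, and array weights to 0.22 and 0.15 in the last 2. Leaving out 1 array gave both signs for CXCL2 209774_x_at (-0.19 to 0.30 at 12 h, -0.48 to 0.49 at 48 h, -0.58 to 0.39 in the difference), for CXCL2 1569203_at (-0.25 to 0.018 at 12 h, where it is near background and the sign is not readable, and -0.038 to 0.92 at 48 h), for CXCL3 (-0.069 to 0.077, -0.45 to 0.36 and -0.45 to 0.37) and for IL6 at 48 h (-0.043 to 0.52). The cause of these shifts was not tested, beyond the fewer tests and fewer arrays that some alternatives hold by construction. The fits of LIF with a shared spread and 1 array left out were chosen after seeing the data.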
